A study of Mus musculus with 24 samples.

Results

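Genes of the MHC class II pathway and of T cell costimulation were followed in spinal cord tissue and in its oligodendrocyte (OL) translatome before and after contusive spinal cord injury (SCI). The 10 genes were chosen by name from the 21965 genes of the deposited count table. They are the class II chains H2-Aa, H2-Ab1 and H2-Eb1, the chaperones Cd74, H2-DMa and H2-DMb1, the transactivator Ciita, and the costimulatory molecules Cd80, Cd86 and Cd40. All 10 passed the filter that 17167 genes passed (10 or more counts summed over the 24 libraries), although Ciita, Cd80 and Cd40 had at most 120 counts in any library. Levels are given as CPM, the library-size-scaled count unit.

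The mice carried a tamoxifen-inducible Cre that is active in OLs and the Ribotag allele of Rpl22, and tamoxifen had switched on HA-tagged RPL22 in all groups, the naive one included. A moderate contusion was made at T9 and tissue was taken at 2, 10 or 42 days post-injury (dpi), while naive tissue had no injury. The labels give female mice with an age at injury of 10 to 12 weeks. By the study's methods both mouse lines were on a C57Bl6 background. By the study's methods naive tissue was collected alongside that of dpi 42, so naive mice were older at collection than those of dpi 2 and dpi 10, and in these comparisons age and injury cannot be told apart. Tissue of 2 mice was pooled, with 3 pools in a group, and a pool gave 1 total RNA library and 1 library of RNA that was purified with the HA-tagged ribosomes (termed OL here). The purification enriches OL RNA and does not isolate it, and this Cre is also active in Schwann cells. In total RNA, more cells of a type and more RNA per cell cannot be told apart.

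MHC class II molecules are surface heterodimers that present peptides from endocytosed material to CD4+ T cells. H2-Aa encodes the alpha chain and H2-Ab1 the beta chain of I-A, while H2-Eb1 encodes the beta chain of I-E. H2-Ea of the same locus was not found in the count table, so H2-Eb1 levels do not show whether I-E was made. New chains bind the invariant chain CD74, which guards the peptide groove until proteases trim it in the endosome, and the H2-DM heterodimer of H2-DMa and H2-DMb1 then exchanges the remnant for peptide. CIITA is the master switch of class II transcription. It does not bind DNA itself and docks on RFX and NF-Y factors that sit on the X and Y boxes of class II promoters. CD80 and CD86 deliver the second signal through CD28 on the T cell, and CD40 receives help from CD40L. Macrophages, B cells and dendritic cells are the usual class II carriers, microglia acquire class II upon activation, and Ciita and the chains respond to interferon gamma.

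The class II genes lie together on chromosome 17 (GRCm38, GENCODE M21): H2-DMa at chr17:34119541-34139101, H2-DMb1 at chr17:34153072-34160230, H2-Ab1 at chr17:34257689-34269419, H2-Aa at chr17:34282744-34287823 on the minus strand and H2-Eb1 at chr17:34305867-34316674. Ciita, Cd80 and Cd86 are on chromosome 16, and Cd40 is on chromosome 2. RefSeq promoter windows (GRCm38.p6, 250 bases before to 50 after a start) were on hand for 5 of the 10 genes in 6 windows. The X box core AGNAAC with a Y box core ATTGG starting 20 to 40 bases after the start of the X core, on either strand and without overlap, was in the windows of H2-Eb1 and H2-DMb1. It was in 1.12% of all 32851 windows. The 170 bases before the start of both genes are printed below because they hold the module through which CIITA is known to act, with both cores in capitals. H2-Aa is shown beside them with its Y core in capitals, since its window held no exact match to the X core. Letters before that Y core differ from the X core in the first letter only, at a distance within the range searched. The search took exact cores only, so variants of the X box were not counted and a lack of the module cannot be read from it.
H2-Eb1, chr17:34305697-34305866, plus strand: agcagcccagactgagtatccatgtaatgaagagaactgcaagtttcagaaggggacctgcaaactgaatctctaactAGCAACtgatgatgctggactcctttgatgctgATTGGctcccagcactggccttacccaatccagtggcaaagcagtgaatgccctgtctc
H2-DMb1, chr17:34153021-34153190, plus strand: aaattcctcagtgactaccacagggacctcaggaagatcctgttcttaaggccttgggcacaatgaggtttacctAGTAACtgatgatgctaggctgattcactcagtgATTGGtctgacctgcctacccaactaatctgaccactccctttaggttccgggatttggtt
H2-Aa, chr17:34287824-34287993, minus strand: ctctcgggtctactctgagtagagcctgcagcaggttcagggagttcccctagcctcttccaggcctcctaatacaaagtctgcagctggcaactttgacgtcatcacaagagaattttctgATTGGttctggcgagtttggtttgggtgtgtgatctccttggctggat
The X core lay 92 bases before the start in H2-Eb1 and 95 bases before it in H2-DMb1, and the cores were 33 and 34 bases apart from start to start. The windows of H2-DMa and Cd80 held no exact match to the module either. These matches describe letters in a window and no binding was measured.

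Counts on genes per library ran from 25840127 to 29050061 in total RNA and from 29075211 to 32987841 in OL, so 3 counts stood for 0.084 to 0.127 CPM. The 10 OL markers (such as Mbp and Mog) were OL enriched in each of the 4 groups, 10 of 10, with a median of 2.63 to 2.80 on the log2 scale. Counts of 4 Y-linked genes summed to 2414 and 2604 counts in both libraries of dpi 2 pool 2 and to at most 13 in the other 22 libraries. This conflicts with the labels, which give female mice, so sex may differ between this pool and the others. Naive pool 3 stood apart from naive pools 1 and 2 by its summed Schwann cell markers (177 CPM against 2.72 and 2.00 in total RNA). It also had the highest class II chain and Cd74 levels of the naive total RNA libraries. In OL its markers of astrocytes (5740 CPM against 787 and 802) and of OL precursors (143 CPM against 38.5 and 30.2) were also the highest of the naive libraries. The labels of 2 dpi 42 libraries conflict, and these were placed by their description.

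The 3 class II chains were low in naive tissue and rose in total RNA at every dpi. H2-Aa was at 0.656, 0.548 and 2.41 CPM in the naive total RNA libraries, at 20.1, 12.9 and 14.1 CPM on dpi 2, at 42.8, 46.3 and 51.0 CPM on dpi 10 and at 45.3, 35.0 and 46.8 CPM on dpi 42. All SCI libraries lay above all naive ones, and the dpi 10 and dpi 42 libraries lay above those of dpi 2. The changes of H2-Aa against naive were 3.70 ± 0.48, 5.27 ± 0.51 and 5.13 ± 0.50 (Log2FC ± SE, edgeR quasi-likelihood test, q = 3.36e-06, 1.12e-07 and 2.76e-07). H2-Ab1 changed by 4.12, 5.22 and 5.33 and H2-Eb1 by 3.30, 4.94 and 4.89, with q of at most 1.21e-05 in edgeR, and both were above naive in every SCI library. The naive spread was wide for these genes, since H2-Ab1 was at 0.262 and 0.742 CPM in naive pools 1 and 2 but at 2.38 CPM in pool 3.

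In OL the chains rose too, from a lower base. H2-Ab1 was at 0.168, 0.212 and 0.153 CPM in naive OL, at 2.57, 0.567 and 1.11 CPM on dpi 2, at 2.25, 2.32 and 4.91 CPM on dpi 10 and at 3.71, 2.76 and 6.26 CPM on dpi 42. None of the SCI libraries overlapped the naive ones, and on dpi 2 the libraries spread from 0.567 to 2.57 CPM. The OL change of H2-Ab1 was 2.98 ± 0.72, 4.13 ± 0.69 and 4.55 ± 0.69 (edgeR, q = 0.00237, 0.00024 and 3.51e-05). H2-Eb1 was at 0.0846 to 0.378 CPM in naive OL, and its OL change was 2.24, 4.05 and 4.05 (edgeR, q = 0.0048, 3.4e-05 and 1.59e-05). On dpi 2 its library of replicate 1 (0.302 CPM) lay within the naive range. In a fit of only the 2 groups compared the dpi 2 call of H2-Eb1 was lost (q = 0.159).

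H2-Aa had 0, 0 and 1 counts in naive OL, then 16, 19 and 69 counts on dpi 2, while the dpi 10 libraries had 103, 104 and 105 and the dpi 42 ones 150, 91 and 104. The ratio of the summed levels against naive was 99.0 on dpi 2 with a 95% counting interval (exact binomial) of 17.4 to 3950. On dpi 10 it was 293 (52.2 to 11600) and on dpi 42 it was 314 (55.9 to 12400), and the interval covers counting error only. The 3 dpi 10 libraries of this gene were nearly equal, at 3.96 to 4.00 CPM. H2-Aa was called higher in OL at all 3 dpi (edgeR, q = 2.78e-05, 2.07e-06 and 1.21e-06).

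**Figure D1:**
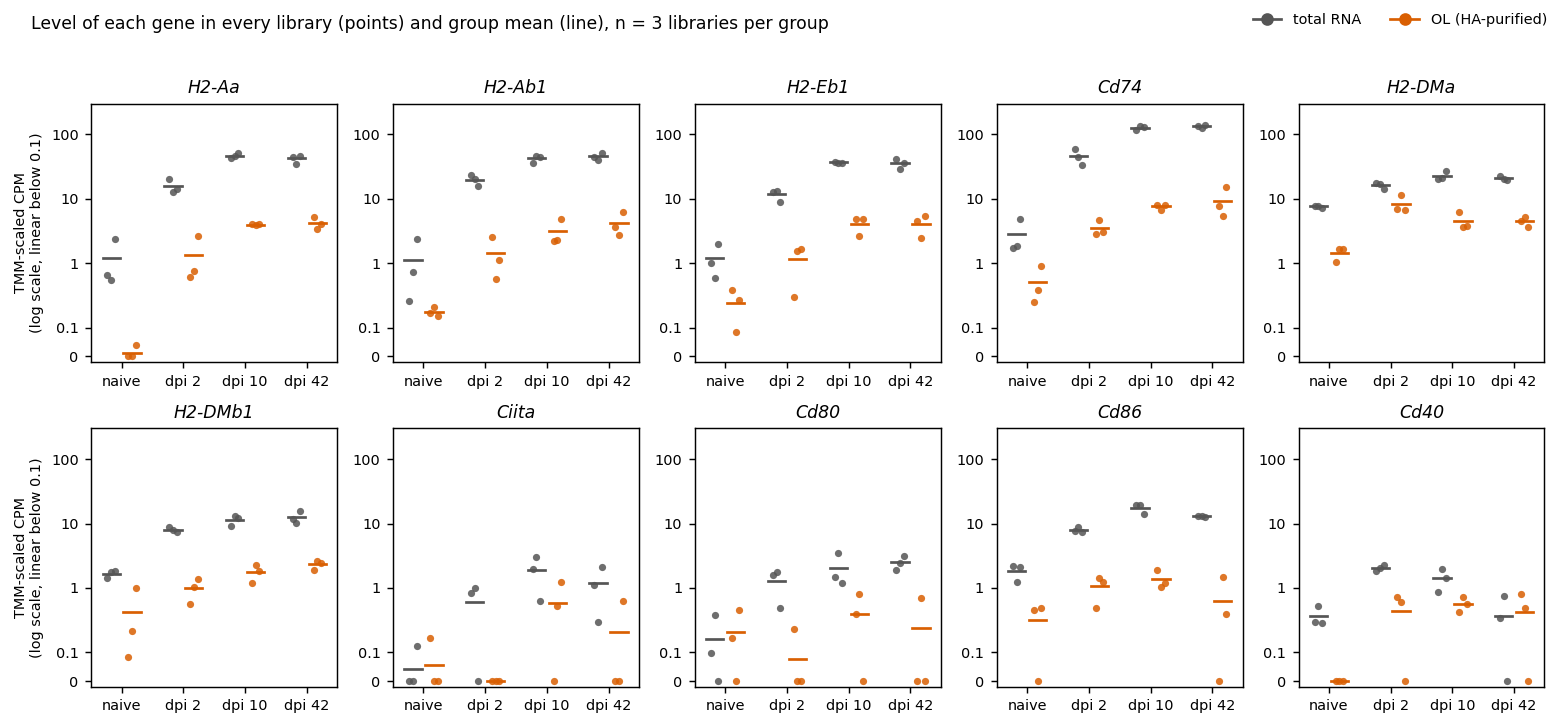
TMM-scaled CPM (log scale, linear below 0.1) of each of the 10 genes in the 24 libraries, with total RNA in grey, OL in orange and a line at each group mean (n = 3). The group means of the class II chains and Cd74 are higher on dpi 10 than on dpi 2 in both kinds of library (not called for H2-Ab1), with OL below total RNA, while Ciita, Cd80 and Cd40 have libraries at 0.

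Cd74, the invariant chain, was the most abundant of the 10 genes per length in total RNA at every dpi. Its total RNA level was 1.74, 1.87 and 4.88 CPM in naive tissue, 59.2, 45.3 and 33.1 CPM on dpi 2, 117, 135 and 128 CPM on dpi 10 and 137, 126 and 142 CPM on dpi 42. The change was 4.01 ± 0.40, 5.48 ± 0.42 and 5.57 ± 0.43 (edgeR, q = 1.32e-07, 5.39e-09 and 7.94e-09). In OL, Cd74 was at 0.252, 0.381 and 0.918 CPM in naive tissue, 2.87, 4.70 and 3.06 CPM on dpi 2, 8.08, 6.66 and 8.15 CPM on dpi 10 and 7.62, 5.34 and 15.2 CPM on dpi 42. Every SCI library lay above the naive ones in both kinds of RNA. The OL change was 2.74, 3.85 and 4.14 (edgeR, q = 0.000118, 6.64e-06 and 1.87e-06), which was less than the total change by 1.27, 1.63 and 1.43 on the log2 scale. Those differences were past 1 in size but were not called by q (edgeR, q = 0.219, 0.138 and 0.194). Naive pool 3 was the highest naive library in both kinds of RNA. Without the naive total RNA library of replicate 3 the differences were called, at -1.92, -2.28 and -2.08 (edgeR, q = 0.0398, 0.0267 and 0.0416). Without the dpi 42 OL library of replicate 3 the last was -2.13 (edgeR, q = 0.0209). DESeq2 called the difference on dpi 10 (-1.64, q = 0.0381).

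H2-DMa had the highest naive level per length of the 10 genes, although Cd74 was within its spread. H2-DMa was at 7.80, 7.71 and 7.32 CPM in naive total RNA, 17.7, 17 and 14.3 CPM on dpi 2, 20.5, 21.1 and 26.7 CPM on dpi 10 and 22.6, 20 and 19.6 CPM on dpi 42. In OL it was at 1.05, 1.65 and 1.64 CPM in naive tissue, rose to 6.84, 11.6 and 6.66 CPM on dpi 2, and was at 6.25, 3.61 and 3.84 CPM on dpi 10 and 4.51, 5.26 and 3.60 CPM on dpi 42. The mean total RNA level was thus highest on dpi 10 and the mean OL level on dpi 2. From dpi 2 to dpi 10 the total RNA change was 0.48 and not called (edgeR, q = 0.276), although the libraries did not overlap. The dpi 2 OL libraries of H2-DMa all lay above those of dpi 10 and dpi 42.

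The OL change of H2-DMa was 2.52 ± 0.27, 1.65 ± 0.27 and 1.62 ± 0.27, against a total change of 1.10 ± 0.25, 1.58 ± 0.25 and 1.44 ± 0.25 (all called by edgeR, q at most 0.00122). Differential OL enrichment, the OL change minus the total change, was 1.42 ± 0.36 on dpi 2 (edgeR, q = 0.00959), 0.07 ± 0.35 on dpi 10 and 0.17 ± 0.35 on dpi 42. H2-DMa was the 1 gene of the 10 called for it on dpi 2, with 6.27% of all tested genes called in either direction. With the tissue pool as a block the dpi 2 value was 1.40 (edgeR, q = 0.0238). Without dpi 2 pool 2, which held the Y-linked counts and had the highest OL level, it was 1.15 (edgeR, q = 0.0494). Leaving out the dpi 2 OL library of replicate 2 alone gave 0.91 (q = 0.0746), and leaving out the naive OL library of replicate 1 gave 1.03 (q = 0.0717), so the call rests on these 2 libraries. On dpi 10 and dpi 42, 0 of 10 genes were called by edgeR against 2.91% and 2.97% of all genes. Unadjusted edgeR p was under 0.05 for 2 and 3 genes there. These were Cd74 (negative) and Cd40 (positive, 5.16 and 6.70) on both days and H2-Aa (positive) on dpi 42. DESeq2 called Cd74 on dpi 10 and Cd40 on dpi 42 (q = 0.0406). A fit of only the groups compared called Cd40 on dpi 10 (q = 0.032). The naive OL group summed to 0 counts for Cd40 and 1 for H2-Aa, so the size of these positive values is not fixed.

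H2-DMb1, the partner chain, was not called for differential OL enrichment on dpi 2 (-1.09, edgeR, q = 0.365). It was at 1.44 to 1.81 CPM in naive total RNA and at 7.35 to 8.96, 9.20 to 13.3 and 10.2 to 15.8 CPM after SCI, a total change of 2.27, 2.79 and 2.92 (edgeR, q = 0.000714, 0.000144 and 0.000189). In OL it was at 0.084, 0.212 and 0.994 CPM in naive tissue and at 0.567, 1.05 and 1.38 CPM on dpi 2, so the groups overlapped, and the OL change of 1.19 was not called (edgeR, q = 0.0841). Without naive pool 3, which held 26 of the 33 naive OL counts, that change was 2.72 (q = 0.000364), and DESeq2 on all libraries called it at 1.22 (q = 0.0336). The OL changes on dpi 10 and dpi 42 were 2.01 and 2.40 (edgeR, q = 0.00974 and 0.00128), with each library higher than any naive one. Both calls were lost in a fit of only the 2 groups (q = 0.177 and 0.104), and the dpi 10 one without the naive OL library of replicate 2 (q = 0.0575).

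Counting cannot always place reads of these loci. Annotated exons of H2-DMa share 360 bases with Brd2 on the opposite strand, and those of Ciita share 329 bases with Dexi, and the strand setting of the counting was not stated. Brd2 was at 162 CPM in naive total RNA and 171 CPM on dpi 2, and at 191 and 183 CPM in OL (changes of 0.07 and -0.06, edgeR, q = 0.565 and 0.641). The part of shared reads in the H2-DMa values was not tested. H2-DMb2 is a close paralog of H2-DMb1 and reads may be split between them. H2-DMb2 was at 0.247 CPM in naive and 1.49 CPM in dpi 10 total RNA.

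Ciita was barely counted in either kind of RNA. In total RNA the 3 naive libraries had 0, 0 and 4 counts, those of dpi 2 had 30, 33 and 0, those of dpi 10 had 67, 105 and 22, and those of dpi 42 had 39, 10 and 75. On dpi 10 and dpi 42 each library exceeded the naive ones, and 1 dpi 2 library was at 0. The total change was 3.71, 5.33 and 4.67, none of them called (edgeR, q = 0.158, 0.0599 and 0.116), with SEs of 1.99 to 2.10. The dpi 10 change was called by DESeq2 (q = 0.0285), in a fit of only the 2 groups (q = 0.000266), without naive pool 3 (q = 0.0491), and when one of 4 other libraries was left out (dpi 2 total replicate 3, dpi 10 OL replicate 1, dpi 42 OL replicates 1 and 3, with q = 0.039 to 0.048). A fit of only the 2 groups called the dpi 42 change too (q = 0.011). In OL, Ciita had 4, 0 and 0 counts in naive tissue, 0 in all 3 dpi 2 libraries, 0, 14 and 32 in those of dpi 10 and 0, 0 and 16 in those of dpi 42. No OL change of Ciita was called, and with 3 counts over the group as the floor its dpi 2 level was at least 15.9-fold lower in OL than in total RNA (edgeR, q = 0.031, with the tissue pool as a block q = 0.0917). That call was also lost without dpi 2 pool 2 and without 5 of the 6 dpi 2 libraries taken singly.

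Of the costimulatory genes, Cd86 rose in total RNA at each dpi. It was at 2.23, 1.23 and 2.09 CPM in naive tissue, 7.70, 9 and 7.32 CPM on dpi 2, 19.2, 19.3 and 14.3 CPM on dpi 10 and 13.2, 13 and 12.7 CPM on dpi 42. The groups did not overlap and the total change was 2.11 ± 0.71, 3.25 ± 0.74 and 2.81 ± 0.73 (edgeR, q = 0.0232, 0.00173 and 0.00758). The dpi 2 call was lost without any one of the 3 naive total RNA libraries or without dpi 2 pool 2 (changes of 1.89 to 2.27, q = 0.0508 to 0.095). In OL, Cd86 had 11, 0 and 13 counts in naive tissue and 13, 35 and 33, 49, 27 and 31, and 0, 40 and 10 counts on dpi 2, 10 and 42. Its OL change of 1.70, 2.07 and 0.95 was not called by edgeR (q = 0.113, 0.086 and 0.429), while DESeq2 called dpi 2 and dpi 10 (q = 0.0415 and 0.0219). The edgeR fit also called both without the 2 libraries of conflicting labels (q = 0.0455 and 0.0296) or without dpi 42 OL replicate 1 (q = 0.0432 and 0.0226), and dpi 10 without dpi 42 OL replicate 2 (q = 0.0438).

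Cd80, the other CD28 ligand, was at 3, 12 and 0 counts in naive total RNA and at 16 to 59, 42 to 120 and 67 to 109 counts on dpi 2, 10 and 42. Each SCI library lay above the naive ones, but the total changes of 2.94, 3.63 and 3.91 carried SEs of 1.59 to 1.65 and were not called (edgeR, q = 0.159, 0.0977 and 0.0975). DESeq2 called Cd80 on dpi 10 and dpi 42 (q = 0.0494 and 0.0451), and fits of only the 2 groups called all 3 days (q = 0.0359, 0.0013 and 0.00217). In OL, Cd80 had 4, 0 and 12 counts in naive tissue and at most 21 counts in any SCI library, and its libraries overlapped the naive ones at each dpi.

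Cd40, the receptor for T cell help, had its highest total RNA level on dpi 2. The naive libraries had 9, 16 and 9 counts, the dpi 2 ones 65, 69 and 76, the dpi 10 ones 29, 69 and 49, and the dpi 42 ones 12, 25 and 0. All dpi 2 and dpi 10 libraries lay above the naive ones and those of dpi 42 did not. The total change of 2.48 on dpi 2 and 1.94 on dpi 10 was not called in the model of all groups (edgeR, q = 0.152 and 0.28) but was in fits of only the 2 groups (q = 0.00198 and 0.00859). In OL, Cd40 was at 0 in the 3 naive libraries and at 19, 15 and 0, 11, 19 and 15, and 23, 13 and 0 counts on dpi 2, 10 and 42. Against 3 counts over the naive group it was at least 10.8-fold, 14.1-fold and 10.9-fold higher (edgeR, q = 0.0142, 0.0211 and 0.0172). These calls rest on few counts. The dpi 10 call was lost without naive pool 3 (q = 0.0591) and the dpi 42 call without the 2 libraries of conflicting labels (q = 0.0551). Both were also lost without naive OL replicate 1 or 2 (q = 0.0527 to 0.066) and that of dpi 42 without dpi 42 OL replicate 1 (q = 0.057). In fits of only the 2 groups dpi 2 and dpi 42 were not called (q = 0.133 and 0.146).

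Across the 10 genes, 7 were called higher in total RNA on each of dpi 2, 10 and 42, where 10.0%, 9.20% and 6.66% of all tested genes were. In OL, 6, 7 and 7 were called higher, where 10.2%, 6.82% and 8.54% of all genes were. The median change of the 10 genes was 3.12, 4.29 and 4.29 in total RNA and 2.38, 3.58 and 3.23 in OL, or 2.38, 3.56 and 2.92 in OL with Cd40 and Ciita at their bounds, while the median over all genes lay between -0.10 and 0.00. By the libraries alone, 9, 10 and 9 genes had all 3 SCI total RNA libraries above all 3 naive ones (24.7%, 24.5% and 20.2% of all genes), and 4, 8 and 6 did in OL (18.3%, 15.8% and 17.2%). The 7 genes called in total RNA were the 3 chains, Cd74, both H2-DM genes and Cd86 on each day. The OL calls differ from these by lacking Cd86, by holding Cd40, and on dpi 2 by lacking H2-DMb1.

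**Figure D2:**
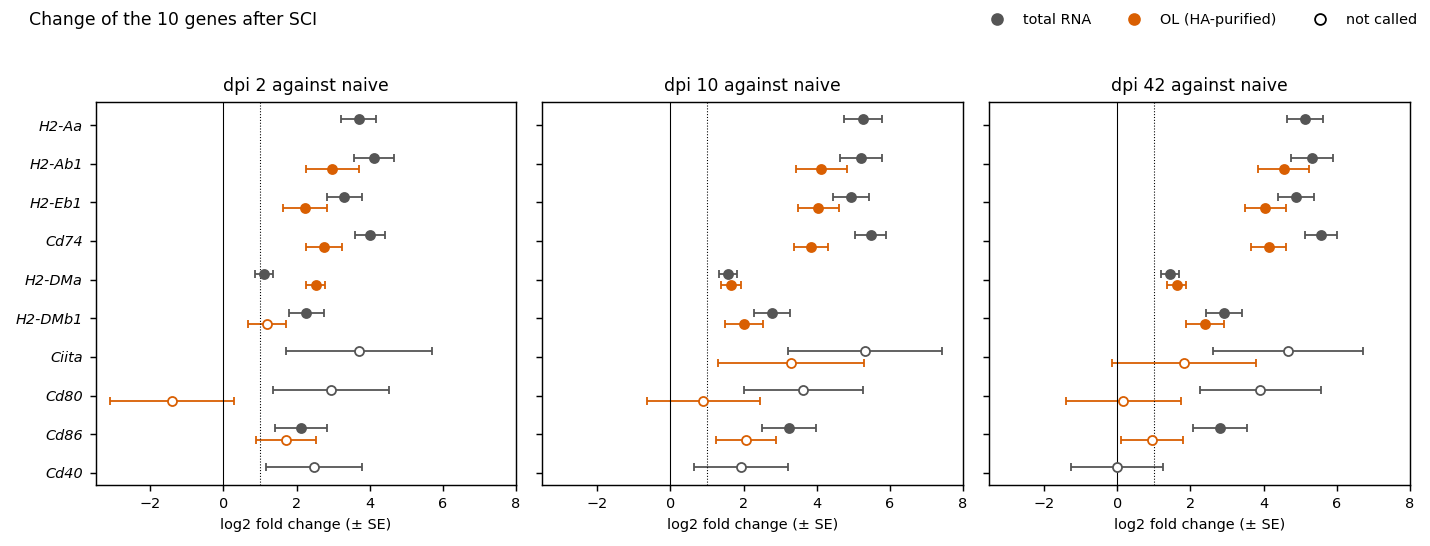
Log2 fold change against naive (± SE, edgeR, n = 3 libraries per group) of each gene on dpi 2, 10 and 42, with total RNA in grey and OL in orange, open symbols where not called and a dotted line at 1. H2-DMa on dpi 2 has an OL change of 2.52 and a total change of 1.10, while for H2-Ab1, H2-Eb1 and Cd74 the OL change is the smaller one, and OL changes with a group at 3 counts or fewer are not drawn (H2-Aa, Cd40, and Ciita on dpi 2).

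All class II chains, Cd74, both H2-DM genes and Cd86 were OL depleted (OL under total RNA past 0.5 on the log2 scale) in naive tissue and at each dpi. With Cd40 in naive tissue and Ciita on dpi 2, 8 of 10 genes were called depleted in each of those groups and 7 at the later times, where 28.6%, 27.2%, 27.3% and 27.0% of all genes were. Cd74 had an OL enrichment of -2.42, -3.69, -4.05 and -3.85 and H2-Ab1 one of -2.65, -3.79, -3.74 and -3.43 in the naive, dpi 2, dpi 10 and dpi 42 groups (edgeR, q at most 0.00381). For H2-Ab1 the naive call was lost without naive pool 3 (-1.39, q = 0.169) and without its total RNA library alone (-1.49, q = 0.0827). The naive call of Cd86 was lost without the naive OL library of replicate 2 (-1.78, q = 0.065). In fits of only the 2 groups the naive calls of Cd86 and H2-DMb1 were lost (q = 0.0561 and 0.0888). Cd80 was not called depleted on dpi 2 and dpi 42 (-3.98 and -3.38, edgeR, q = 0.0563 and 0.082) but was by DESeq2 (q = 0.0243 and 0.0458) and with library sizes alone (q = 0.0307 and 0.0483). Its dpi 2 depletion was also called without naive pool 3 (q = 0.047). H2-DMa was depleted, at -2.39, -2.32 and -2.22, in the naive, dpi 10 and dpi 42 groups but had an OL enrichment of -0.96 ± 0.25 on dpi 2 (edgeR, q = 0.00235), the weakest called depletion among the 10 genes.

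Set against total RNA of the same pool, the OL level of H2-DMa was 13.5%, 21.4% and 22.5% in naive tissue and 38.7%, 68.3% and 46.7% on dpi 2, with no overlap. On dpi 10 it was 30.5%, 17.1% and 14.4%, and on dpi 42 it was 22.5%, 23.3% and 18.4%. The dpi 42 pairs include the libraries of conflicting labels. The OL level of Cd74 was 14.5% to 20.4% of total RNA in naive tissue and 3.90% to 10.7% in the SCI pools, and that of the summed class II chains was 6.80% to 28.2% and 6.18% to 14%. The summed markers of all myeloid cells (Itgam, Ptprc, Aif1, Csf1r, Cd68, Spi1, Fcgr3 and Tyrobp) were at 6.29% to 8.93% in naive tissue and 4.74% to 9.02% in the SCI pools. After SCI the Cd74 and class II shares thus overlapped the myeloid marker shares, and every H2-DMa share lay above them. H2-DMb1 was at 6.33% to 18.7% on dpi 2, 13.1% to 17.2% on dpi 10 and 15.3% to 22.1% on dpi 42. On dpi 10 and dpi 42 it thus also lay above the myeloid markers and overlapped H2-DMa. Cd40 was at 36.3% to 49.7% on dpi 10, on few counts. Summed microglia markers were at 67.6% to 93.1% in naive tissue and at 14.8% to 27.9% after SCI. The latter overlaps the H2-DMa shares of dpi 10 and dpi 42 and not those of dpi 2. The OL level of that sum was 212 to 330 CPM in naive tissue and 236 to 344 CPM after SCI. The sum includes Sall1, which was OL enriched in every group, while DESeq2 called the other 8 markers OL depleted in every group. The share of the sum thus cannot be read as that of microglial RNA alone. Monocyte and macrophage markers were at 6.06% to 28.3% in naive tissue and at 5.42% to 13.2% after SCI. The median differential OL enrichment of the 8 myeloid markers was 0.02, 0.12 and -0.19 on dpi 2, 10 and 42.

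**Figure D3:**
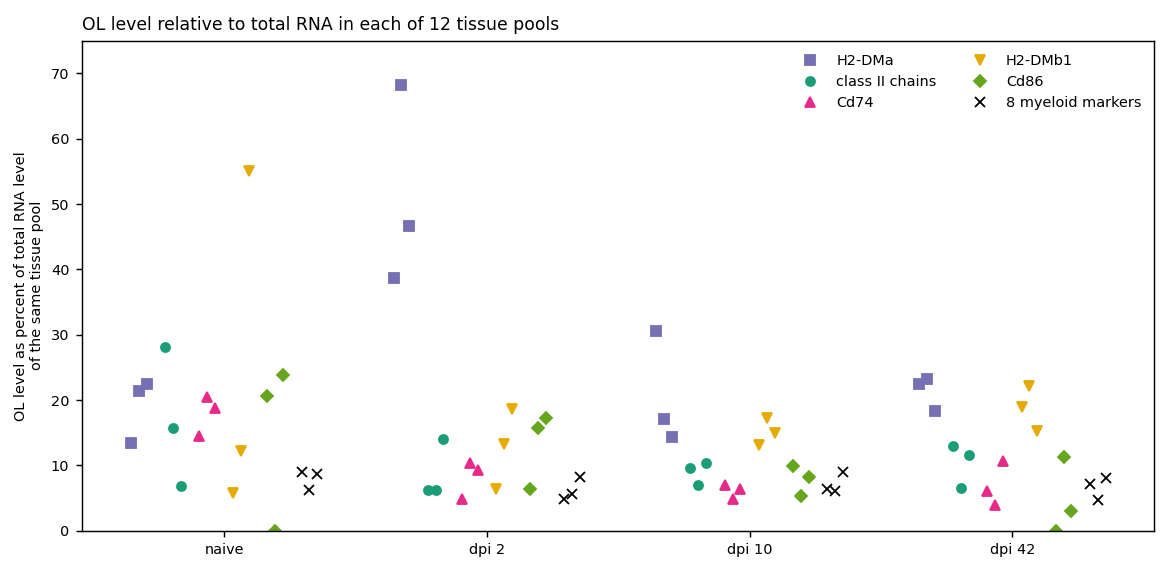
OL level as a percent of the total RNA level of the same tissue pool (3 pools at each time), for H2-DMa, the summed class II chains, Cd74, H2-DMb1, Cd86 and 8 summed myeloid markers. H2-DMa on dpi 2 sits at 38.7% to 68.3%, above its other 9 pools, while the myeloid markers stay between 4.74% and 9.02% throughout.

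Between time points H2-Aa, H2-Eb1 and Cd74 rose from dpi 2 to dpi 10, and no gene was called between dpi 10 and dpi 42. H2-Ab1 was not called from dpi 2 to dpi 10, at 1.10 in total RNA and 1.15 in OL (edgeR, q = 0.179 and 0.126). In total RNA, H2-Aa, H2-Eb1 and Cd74 rose by 1.57, 1.64 and 1.47 from dpi 2 to dpi 10 (edgeR, q = 0.0219, 0.0185 and 0.0101), 3 of 10 genes against 1.07% of all. The same 3 were higher on dpi 42 than on dpi 2, against 0.874% of all genes. In OL, H2-Aa, H2-Eb1 and Cd74 rose by 1.57, 1.81 and 1.11 from dpi 2 to dpi 10 (edgeR, q = 0.018, 0.00762 and 0.0398), 3 of 10 against 4.35% of all genes. On dpi 42 these 3 and H2-Ab1 were above their dpi 2 level in OL, 4 of 10 against 3.68% of all. From dpi 10 to dpi 42, edgeR called 0 of 10 in OL and 0 of 10 in total RNA, and none had an unadjusted p under 0.05. The shares called over all genes were 1.70% and 0.0757%. DESeq2 called none of the 10 either. In total RNA it gave no adjusted p for 1 class II chain, 2 chaperones, Ciita and the 3 costimulatory genes, which thus could not be called. H2-DMa in OL went the other way, lower by 0.87 on dpi 10 and by 0.91 on dpi 42 than on dpi 2 (edgeR, q = 0.0148 and 0.0151), which is short of the threshold of 1.

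The counts between time points were not steady. In fits of only the 2 groups, 0 genes were called in OL for dpi 10 and for dpi 42 against dpi 2, and 5 for dpi 10 against dpi 2 in total RNA. The total RNA count for dpi 10 against dpi 2 was 0 without dpi 2 replicate 3 and 1 without dpi 2 replicate 2 or any one dpi 10 replicate. That for dpi 42 was 1 without dpi 2 replicate 2 or 3 or without dpi 42 replicate 1 or 3. The OL count for dpi 42 against dpi 2 was 2 without dpi 2 replicate 1 or 2 or dpi 42 replicate 1 or 3, without dpi 2 pool 2, and without the 2 libraries of conflicting labels. Without dpi 2 pool 2 the calls of H2-Aa against dpi 2 were lost in OL (q = 0.0887 for dpi 10 and 0.084 for dpi 42) and in total RNA (q = 0.0893 and 0.113). Without naive pool 3, dpi 42 was called above dpi 2 for H2-DMb1 in OL (1.21, q = 0.023) and for H2-Ab1 in total RNA (1.21, q = 0.04).

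Per kb of merged exons, H2-DMa led naive total RNA (2.21 CPM per kb) ahead of H2-DMb1 (0.99), while Cd74 (1.69 ± 1.06) did not differ from it beyond its spread. On dpi 10, Cd74 led at 75.4 ± 5.65 CPM per kb, followed by H2-Eb1 at 18.9, H2-Ab1 at 16.5, H2-Aa at 12.3, H2-DMb1 at 6.86, H2-DMa at 6.61 and Cd86 at 4.80, with Cd80, Cd40 and Ciita under 1. The lead of Cd74 was larger than the spread between libraries, while H2-DMb1 and H2-DMa did not differ beyond their spread. In OL, H2-DMa was first on dpi 2 at 2.42 ± 0.81 CPM per kb beside Cd74 at 2.11 ± 0.60, which is within the spread, and Cd74 was first on dpi 10 at 4.54 and on dpi 42 at 5.59. With the longest transcript in place of merged exons, H2-Ab1 came before H2-Eb1 in each group but naive OL, and Cd74 and H2-DMa kept the first place they had.

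**Figure D4:**
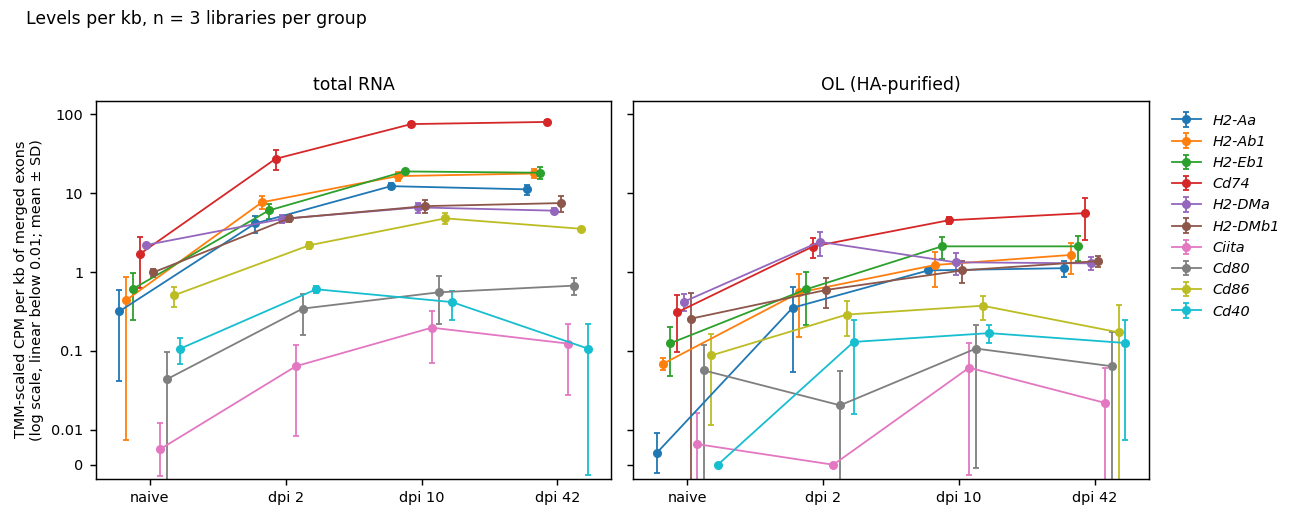
Mean level per kb of merged exons (TMM-scaled CPM per kb, log scale that is linear below 0.01, ± SD of n = 3 libraries, bars cut at the lower edge) in total RNA and OL by time. Cd74 reaches 75.4 CPM per kb in total RNA on dpi 10 and 4.54 in OL, and H2-DMa is the one line of the upper group in OL that is highest on dpi 2.

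Other genes of the pathway were taken by list. Over all tested genes, edgeR called 10.0%, 9.20% and 6.66% higher in total RNA on dpi 2, 10 and 42. In OL it called 10.2%, 6.82% and 8.54%. A count of 1 in lists of this size is near these shares. Among 10 antigen processing genes in the table, 6, 6 and 5 rose in total RNA on dpi 2, 10 and 42 and 3, 3 and 4 rose in OL. Ctss, the protease that trims the invariant chain, changed by 2.11, 3.74 and 3.37 in total RNA and 2.08, 3.50 and 3.50 in OL (edgeR, all called), and its OL enrichment lay between -4.17 and -3.79 in the 4 groups. Ctsd and Ctsz, further lysosomal proteases, rose by 2.58 to 3.73 in total RNA. Their OL changes were 0.70 to 1.04, of which Ctsz on dpi 42 was the 1 past the threshold of 1. Of 4 other class II locus genes, H2-Ob, a chain of the inhibitor of H2-DM, was the 1 called in total RNA, by 3.18 on dpi 10 and 3.38 on dpi 42 (edgeR, q = 0.0319 and 0.0334), and it was the 1 called lower in OL on dpi 2 and dpi 42 (q = 0.0422 and 0.0448). The latter calls rest on 6, 0 and 5 naive OL counts against 0 in all libraries of both days.

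The 10 factors that bind or modify class II promoters summed to 534 to 689 CPM in naive OL and to 372 to 467, 441 to 473 and 343 to 497 CPM on dpi 2, 10 and 42, below naive in each library, and to 321 to 334 CPM in naive total RNA and 261 to 329 CPM after SCI. Their median OL change was -0.42, -0.20 and -0.23. Nfya, a subunit of the Y box factor, rose by 1.04 and 1.27 in total RNA on dpi 2 and dpi 10 and was the 1 gene of the list called there, while the coactivator Ep300 fell by 1.21 and 1.06 in OL on dpi 2 and dpi 42. In OL, 0 of 10 were called higher by edgeR or DESeq2, with an unadjusted edgeR p under 0.05 in either direction for 5, 3 and 3. Rfx5, which binds the X box, changed by -0.82, -0.22 and -0.48 in total RNA. In the list from interferon gamma to Ciita, Ifng had no counts outside dpi 10 total RNA, and of the 8 genes tested 1, 3 and 2 rose in total RNA and 3, 2 and 2 in OL. Irf1, which acts on the Ciita promoter, rose by 2.03, 2.63 and 1.97 in total RNA and by 3.43, 3.06 and 3.12 in OL, with a differential OL enrichment of 1.40 on dpi 2. Ifngr2, a chain of the interferon gamma receptor, rose in OL by 1.38, 1.21 and 1.17. Its total RNA changes of 0.37 to 0.76 were short of the threshold, and its differential OL enrichment on dpi 2 was 1.01.

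Among 10 tested ligands of other costimulatory or adhesion pairs, 5, 4 and 4 rose in total RNA and 4, 3 and 4 in OL. Icam1, which binds LFA-1 on T cells, rose by 2.93, 3.93 and 3.30 in total RNA and by 3.39, 5.09 and 6.24 in OL. Cd274, which encodes the inhibitory ligand PD-L1, rose by 1.28 and 1.01 in total RNA on dpi 10 and dpi 42. Of 9 genes of CD40 signalling, 3, 5 and 3 rose in total RNA, among them Nfkb2 (1.41, 1.68 and 1.31), while 2, 2 and 3 rose in OL, Traf5 among them (2.53, 2.21 and 2.59). Of 7 partners on T cells, 1, 3 and 2 rose in total RNA, where 10.0%, 9.20% and 6.66% of all tested genes did. Cd40lg had no counts in naive, dpi 2 or dpi 10 libraries.

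Markers of myeloid cells rose with these genes, and not all other marker lists did. Astrocyte markers summed to 3730 to 4050 CPM in naive total RNA and 1610 to 1990 CPM on dpi 2. Neuron markers summed to 7270 to 7710 CPM and 2930 to 3850 CPM in the same groups. The 8 markers of all myeloid cells summed to 135 to 164 CPM in naive total RNA and to 763 to 841, 1400 to 1750 and 913 to 1260 CPM on dpi 2, 10 and 42, and all 8 rose at each dpi. In OL they summed to 8.55 to 14.6 CPM in naive tissue and 37.3 to 64.2, 89.0 to 126 and 59.8 to 101 CPM after SCI, with 7, 8 and 8 of 8 called higher. Of 9 monocyte and macrophage markers all 9 rose in total RNA on dpi 2 and dpi 10 (20.3 to 27.9 CPM in naive tissue, 1060 to 1400 and 3560 to 5250 CPM), and 5 of these were at 0 in naive OL. On dpi 42 they summed to 1770 to 3030 CPM, below dpi 10, while the class II chains summed to 117 to 132 CPM on dpi 10 and 104 to 135 CPM on dpi 42. The 9 microglia markers summed to 315 to 406 CPM in naive total RNA and 1190 to 1310, 1700 to 2170 and 1200 to 1510 CPM after SCI, with 5, 6 and 5 of 9 called higher. The part of these cells in the class II changes was not tested.

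Dendritic cell markers summed to 29.4 to 31.4 CPM in naive total RNA, 20.6 to 22.7 CPM on dpi 2, 39.3 to 59.5 CPM on dpi 10 and 86.5 to 105 CPM on dpi 42. Itgax, which activated microglia and macrophages also express, made up 27.6 CPM on dpi 10 and 70.6 CPM on dpi 42. Xcr1 and Ccr7 were at 0 in OL in all 4 groups, and Xcr1, Cd209a and Ccr7 were at 0 in naive total RNA. B cell markers summed to 61.2 to 78.1 CPM in naive total RNA and to 41.6 to 49.6 CPM on dpi 2, below naive. On dpi 10 they summed to 78.3 to 88.2 CPM and on dpi 42 to 58.1 to 87.1 CPM. Cd22 was the 1 of them called, from 0.214 CPM in naive to 36.1 CPM in dpi 10 total RNA. Ms4a1 and Cd79a stayed under 0.2 CPM in both of these groups. T cell markers summed to 0.459 to 1.05 CPM in naive total RNA and 3.52 to 6.76 CPM on dpi 10, with 2 of 7 called. Schwann cell markers summed to 1.60, 1.73 and 640 CPM in naive OL and to 858 to 1530 CPM on dpi 10. Their part in the OL values was not tested.

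By the pattern over the 6 changes against naive (3 OL, 3 total RNA), the genes nearest to Cd74 among 13985 were H2-Ab1 (root mean square difference 0.27 on the log2 scale), Cd52 (0.44), C1s1 (0.50), H2-Eb1 (0.51) and Sp140 (0.54). Those nearest to Cd86 were B3gnt7 (0.20), Syk (0.31), H2-K1 (0.38), Rin3 (0.39) and Pik3cg (0.40). Ciita had no close match, with Phf11b (0.95), Serpinb6c (1.07), Ctse (1.26), Il1a (1.28) and Zmynd15 (1.31) as the nearest. These distances are descriptions over 24 libraries, in which the 3 changes of each kind share the naive libraries.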

How the data were processed

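RNA was sequenced from total RNA and from HA-immunopurified ribosomes of 12 tissue pools, giving 24 libraries in 8 groups of 3. The authors deposited a table of raw read counts per gene, made from reads aligned with STAR and counted with HTSeq 0.10.0 after FastQC 0.10.1, on mm10/GRCm38.p6 as the submitters' processing notes name it. The strand setting was not given in the sources used here. All 24 columns were used (0 unused).

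Genes whose counts summed to 10 or more were tested, libraries were scaled by TMM, and 1 model of all 8 groups was tested with edgeR 4.0.16 (quasi-likelihood, R 4.3.3) in 19 contrasts, with Benjamini-Hochberg q over all tested genes. A change was called past 1 on the log2 scale at q under 0.05, and an OL enrichment past 0.5. The SE is the absolute log2 fold change divided by the square root of F. The code was tested on simulated data. CPM are TMM-scaled. Levels per length used merged exons. Bounds used a floor of 3 counts over the group, and intervals and floors cover counting error only.

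Alternatives were DESeq2 1.42.0 (its test and its size factors), other scalings and filters, fits of only the groups compared, the tissue pool or replicate number as a block, and each library or doubtful pool left out. Leaving out naive pool 3 was added after seeing the data. Pairing was checked by the correlation of residuals of the OL and total RNA libraries of a pool, which was 0.109 to 0.187 in naive tissue, 0.184 to 0.195 on dpi 2, 0.0513 to 0.118 on dpi 10 and -0.0479 to 0.0169 on dpi 42. Libraries of different pools correlated at -0.179 to 0.0689 in naive tissue, -0.172 to -0.0235 on dpi 2, -0.0751 to 0.00766 on dpi 10 and -0.0469 to 0.0372 on dpi 42. The ranges overlap on dpi 42, so the check did not tell pairs apart there. The pairs follow the tissue codes of the count columns, also for the dpi 42 libraries of conflicting labels. Replicate pairs differed beyond counting noise (24 pairs). Each pool holds separate mice, so p-values of changes within 1 kind of RNA measure the spread between pools, with 1 estimate of spread shared by all groups. For OL enrichment and differential OL enrichment the model takes the OL and total RNA libraries of a pool as independent. The tissue pool as a block is the alternative that pairs them.

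The 10 genes and the lists were chosen with earlier results of these data known. Named genes were the 10 genes, members of the lists (given by counts, with values for examples picked after their values were seen), and for Cd74, Ciita and Cd86 the 5 genes nearest in their 6 changes among genes with a mean total RNA level of at least 1 CPM. H2-Ea and Ifi30 were not found by symbol among the genes of the count table. Some items are not reported here.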

Additional observations from a re-analysis of the deposited data

Results flagged for a closer look

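The differential OL enrichment of H2-DMa on dpi 2 was 1.42 on the log2 scale: its change against naive differed between OL and total RNA by the interaction term of the edgeR model (q = 0.00959). The OL level was above naive in 3 of 3 dpi 2 libraries. The value lay between 0.91 and 1.55 over the 35 alternatives. It was 0.91 and not called (edgeR, q = 0.0746) without the dpi 2 OL library of replicate 2, from the pool with Y-linked counts.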

How the results depend on the processing

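DESeq2's size factors, the filter of edgeR and no filter left all compared calls on the same side of the threshold. The shift that library sizes alone bring was taken from the group means of the log2 TMM factors. It was 0.11 to 0.17 for OL changes, 0.13 to 0.22 for total changes and -0.58 to -0.50 for OL enrichment. H2-DMa differential OL enrichment turned negative on dpi 10 with library sizes alone (-0.01) and with a total RNA reference for TMM (-0.17), and on dpi 42 with the latter (-0.07). With 1 library left out it reached -0.34 to 0.20 on dpi 10 and -0.17 to 0.24 on dpi 42. None of these was past the threshold, and the cause was not tested.

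Genes called for differential OL enrichment on dpi 10 became 1 with DESeq2 and 1 in fits of only the groups compared, and on dpi 42 1 with DESeq2. In fits of only the groups compared, those higher in OL became 0 for dpi 10 and 0 for dpi 42 against dpi 2, and those higher in total RNA on dpi 10 than dpi 2 became 5. The OL count for dpi 42 against dpi 2 was 2 without dpi 2 pool 2 and 2 without the libraries of conflicting labels. With the longest transcript 6, 6, 6, 5 and 6 of the 10 genes kept their place per length (dpi 10 and 42 total, dpi 2, 10 and 42 OL), and with total RNA changes alone 1, 0 and 1 of the 5 nearest genes of Cd74, Ciita and Cd86 were shared.

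With each library left out in turn, counts ranged as follows: differential OL enrichment 0 to 2, 0 to 1 and 0 to 2 on dpi 2, 10 and 42, dpi 10 above dpi 2 2 to 4 in OL and 0 to 3 in total RNA, dpi 42 above dpi 2 2 to 5 in OL and 1 to 4 in total RNA, and 4 to 7 genes with all dpi 2 OL libraries above naive.

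With the replicate block the call of Ciita OL enrichment on dpi 2 was lost (q = 0.0917), H2-DMb1 in OL on dpi 2 was gained with the replicate number as block (1.27, q = 0.0491), and no other call of the 10 genes changed. Few counts limit Ciita, Cd80 and Cd40.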
